A study of Mus musculus with 3 samples.

Results

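The Mycn and Myc loci of mouse embryonic stem (ES) cells held 7 of the 5189 peaks in the deposited list of FLAG-Tex10 chromatin immunoprecipitation peaks. The loci are 2 windows of 110 kb on mm9, chromosome 12 from 12890000 to 13000000 for Mycn and chromosome 15 from 61765000 to 61875000 for Myc, and a peak belongs to a locus when it overlaps the window by at least 1 bp. The Mycn window held 5 peaks and the Myc window 2. The members were thus selected on the listed peak positions, and the windows were chosen with the peaks known, so the counts, scores and widths are given as a description of this list, with no test.

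Chromatin immunoprecipitation followed by sequencing recovers DNA that a protein binds or lies close to. The series has 3 libraries, 1 per group, read as 100 bp single ends: an immunoprecipitate with an antibody against FLAG, one with normal mouse IgG, and input DNA. All 3 came from T10F10 ES cells, which are J1 cells of strain 129SV that ectopically express a Tex10 with a 3xFlag tag from a piggyBac transposon vector, grown in serum with leukaemia inhibitory factor. No library of cells without the transgene was used here, and the labels do not give the promoter of the transgene or whether T10F10 is 1 clone. The peak list is that of the FLAG library, and neither the IgG nor the input library was analysed here. There is no replicate, and the depth behind the list is unknown.

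Mycn and Myc encode N-Myc and c-Myc, paralogous transcription factors of the basic helix-loop-helix leucine zipper class. Each pairs with Max and binds E-box sequences, and together they sustain the growth, rapid division and self-renewal of ES cells, in which the loss of one can largely be covered by the other. Myc is also a target of the leukaemia inhibitory factor pathway through Stat3. Tex10 is a nuclear protein known from a complex that acts in ribosome maturation, and the series title links it to super-enhancers, long enhancer arrays next to genes that define a cell type. In the RefSeq gene order, which belongs to another build (GRCm38.p6) and is used for names only, Mycn lies between the protein-coding genes Cyria and Ddx1. Its next neighbours of any kind are the pseudogenes Rpl36-ps3 and Gm48201. Myc is followed there by Pvt1, a long non-coding RNA gene, and its nearest protein-coding neighbours are A1bg and Gsdmc. Which exon, intron or promoter a peak lies in, and the sequence under it, are not given here, because the peaks are on mm9 and no mm9 genome or annotation was used.

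The 5 peaks at Mycn lay within 16.7 kb, with a single strong peak at one end. Neighbours among 4 of them were less than 5 kb apart, and the fifth stood 11.2 kb away. The strongest lay on chromosome 12 from 12949869 to 12950702, was 834 bp wide and scored 42.5. The score is the authors' value for each peak and has no stated scale, so it serves only to rank peaks within the list. This peak ranked 95 of 5189, so that 1.83% of the list scored as high or higher, and 6 of the 195 peaks on chromosome 12. It was also among the widest, with 1.45% of the list at least as wide, against a median width of 314 bp.

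The other 4 Mycn peaks all lay on one side of it, at lower coordinates. The nearest, from 12949139 to 12949402, was 264 bp wide and scored 2.88, and only 0.47 kb separated it from the strong peak. The next, from 12948253 to 12948476, scored 1.95 and was the lowest of the 195 peaks on chromosome 12. At 224 bp it had the smallest width in the list, which 606 peaks (11.7%) share. A peak of 367 bp from 12945590 to 12945956 scored 2.83. These 3 peaks were therefore among the weakest of the list: 9.31% of all peaks scored 2.88 or less. The fifth peak, from 12933976 to 12934422, was 447 bp wide, scored 9.19 and ranked 887, and it stood 11.2 kb from its neighbour.

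**Figure D1:**
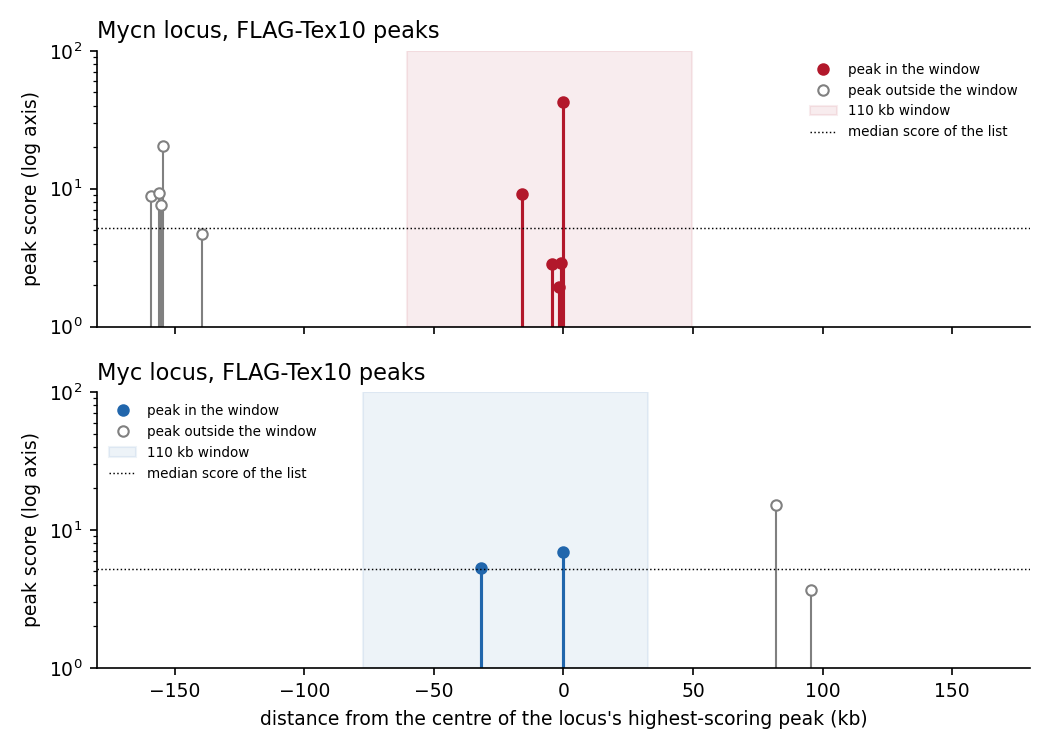
Score of each FLAG-Tex10 peak (log axis) against its distance in kb from the highest-scoring peak of the locus, for Mycn (top) and Myc (bottom). Filled points are peaks in the shaded 110 kb window, open points are peaks outside it, and the dotted line is the median score of the list, 5.22. Mycn has 1 peak at 42.5 and 4 lower peaks on one side of it, while the Myc peaks, at 5.28 and 6.89, lie above the median.

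At Myc the peaks were fewer, farther apart and of middling score. The peak from 61842305 to 61842576 on chromosome 15 was 272 bp wide and scored 6.89, which placed it at rank 1577 of the list and 62 of the 214 peaks on chromosome 15. The peak from 61810409 to 61810713 was 305 bp wide, scored 5.28 and ranked 2527. Both were narrower than the median peak of 314 bp and scored above the list median of 5.22. A gap of 31.6 kb parted them, so they were not joined into a group.

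Of the 7 peaks, 1 scored at least 10, the strong Mycn peak, where 14.5% of the whole list did. At or above the list median were 2 of 5 peaks at Mycn and 2 of 2 at Myc, against 50.0% of the list. The median score of the Mycn peaks, 2.88, was therefore below that of the Myc peaks, 6.09, although the highest score was at Mycn. By coverage Mycn led, with 2136 bp or 1.94% of its window under peaks, against 577 bp or 0.525% at Myc.

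**Figure D2:**
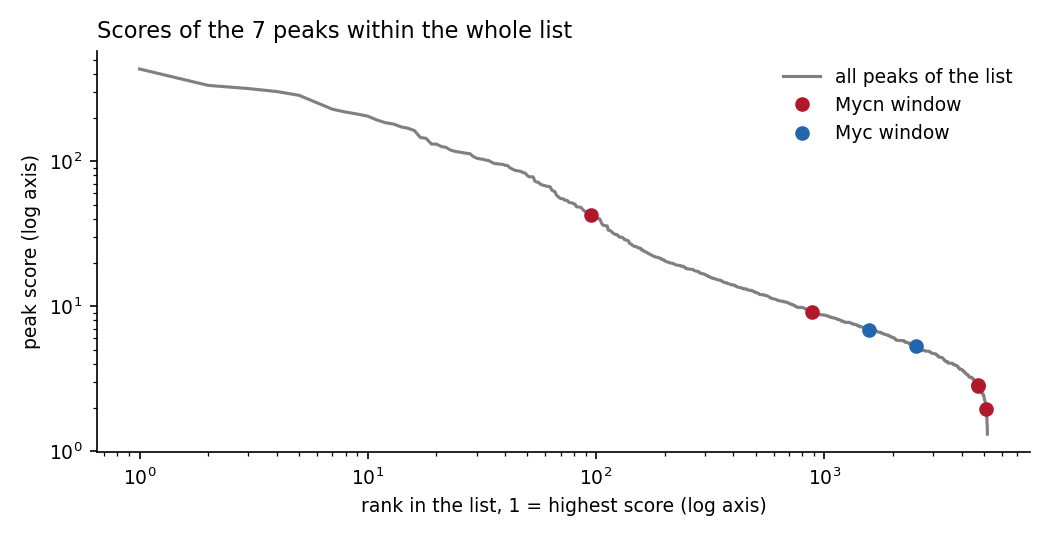
Score against rank for all 5189 peaks (grey line, both axes log), with the Mycn peaks in red and the Myc peaks in blue. The Mycn peaks run from rank 95 to rank 5121, with those at ranks 4707 and 4740 overlapping on this scale, and the Myc peaks fall at ranks 1577 and 2527.

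**Figure D3:**
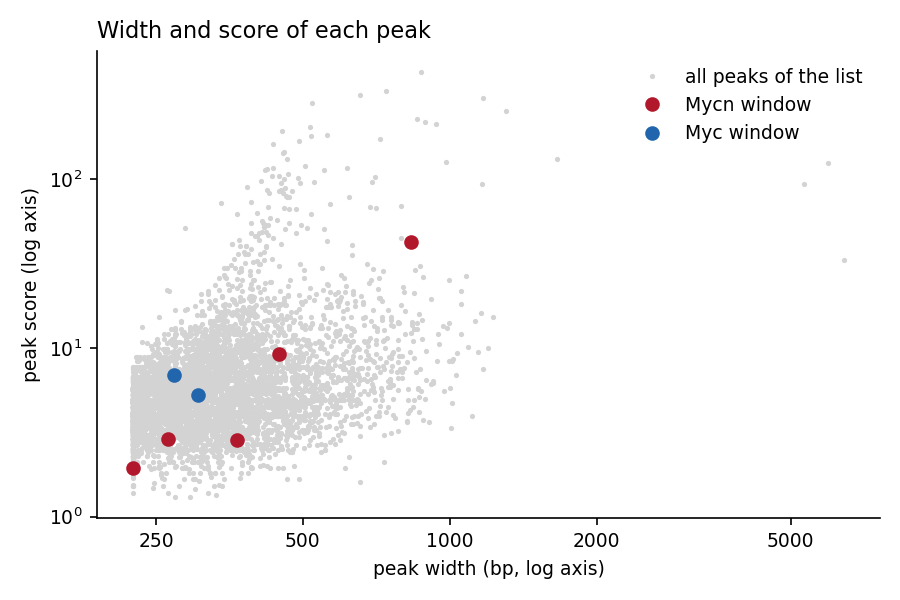
Width in bp against score for every peak (both axes log), with the 7 locus peaks coloured. The strong Mycn peak is both wide (834 bp) and high (42.5), the weakest one sits at the smallest width of the list, 224 bp, and the Myc peaks lie inside the main cloud.

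For the background of the counts at Mycn and Myc, the 19 autosomes were divided into 22465 tiles of 110 kb. Of these, 15.8% held at least 1 peak, 4.47% at least 2, as at Myc, and 0.236% (53 tiles) at least 5, as at Mycn. A tile is placed without regard to peaks whereas the windows were placed on 2 genes with the peaks in view, so these shares describe the background and are not probabilities. Among the 53 tiles with at least 5 peaks the median of the highest score was 10.6, and in 5 of them (9.43%) it reached that of Mycn. The tile that covers the Mycn peaks is itself among the 53 and among the 5. Among the 655 tiles with exactly 2 peaks, as at Myc, the median of the highest score was 6.76, close to the 6.89 at Myc, and 49.2% of them reached the Myc value. A tile boundary falls between the 2 Myc peaks, so no single tile holds both. The tile with the peak scoring 6.89 instead holds a peak from outside the window that scored 15.2.

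The gaps between the peaks of each window were set beside those between all neighbours in the list. Neighbouring autosomal peaks were separated by a median of 140.1 kb, with quartiles of 30.1 and 450.1 kb. Peaks selected from 1 window of 110 kb must have gaps below that median, so the shares given here are description only. The strong Mycn peak had 3 other peaks within 5 kb. At least 1 was found for 21.7% of autosomal peaks, but the share with at least 3 was not counted for all of them. Among the 85 autosomal peaks scoring as high or higher, 10 had at least 3, the Mycn peak included. Within the Mycn group the 4 gaps were 11.2, 2.30, 0.66 and 0.47 kb, and 16.3%, 9.23%, 5.08% and 3.78% of autosomal gaps were as short. The 31.6 kb between the Myc peaks was as long as or longer than 25.5% of gaps. When peaks less than 12500 bp apart were joined, all 5 Mycn peaks fell into a stretch of 16.7 kb, of which 12.8% was covered. When only peaks less than 5 kb apart were joined, the stretch held 4 peaks, since the peak scoring 9.19 stood apart, and the comparison with stretches of at least 5 peaks rests on the longer joining distance. On the autosomes 17 of 4243 stretches and single peaks (0.401%) had at least 5 peaks, and the one at Mycn was the only one of them on chromosome 12. Each Myc peak stayed single, as did 70.7% of autosomal peaks.

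**Figure D4:**
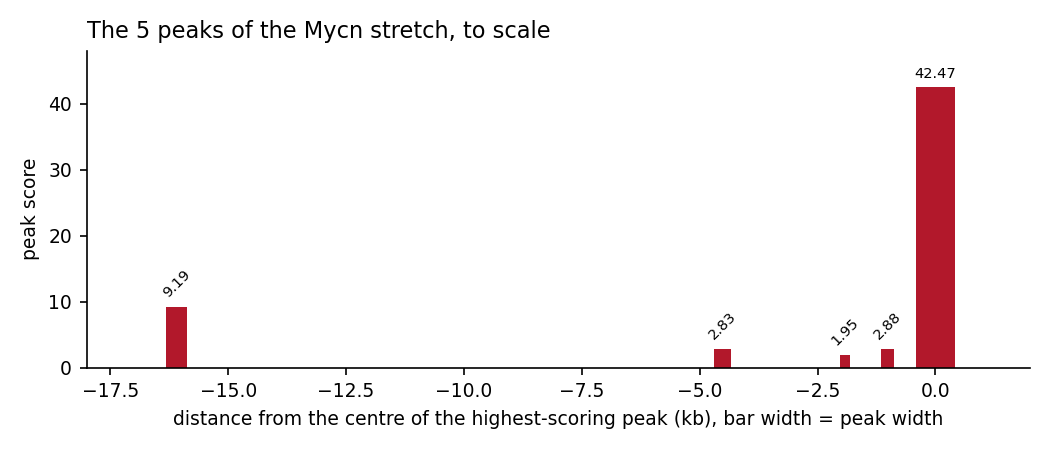
The 5 peaks of the Mycn stretch drawn to scale, with peak width as bar width, score as bar height and distance in kb from the centre of the highest-scoring peak on the horizontal axis. The strong peak (42.5) closes the group at the right, 3 peaks scoring from 1.95 to 2.88 lie within 5 kb to its left, and the peak scoring 9.19 stands apart.

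Among the 17 autosomal stretches of at least 5 peaks, the Mycn stretch joined the second-highest top score to the lowest median score. The minimum of 5 was the Mycn count itself. The 3 weak Mycn peaks brought the stretch to that count and also set its median, so the low median is description only. One stretch, near the start of chromosome 9, had a higher top score, 131, and its median was 19.5. It was unlike Mycn in size, with 19 peaks over 38.2 kb and 27.8% of its length covered. The stretch of chromosome 8 from 91515746 to 91539845 came closest below Mycn, with a top score of 35.8, but its median was 6.21. The Mycn stretch was ordinary in length, 16.7 kb against a median of 16.9 kb and a range from 3.3 to 38.2 kb.

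**Figure D5:**
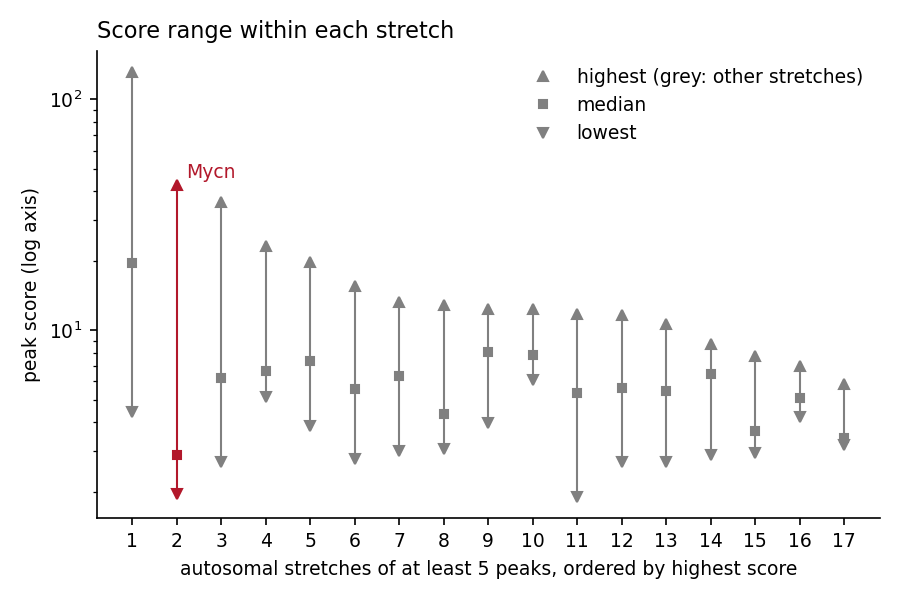
Highest, median and lowest peak score (log axis) of the 17 autosomal stretches with at least 5 peaks, in order of highest score, with Mycn in red and the others in grey. The Mycn stretch is second by highest score (42.5) and has the lowest median of the 17 (2.88). The minimum of 5 peaks is the Mycn count itself.

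The surroundings of both loci were empty on one side and held further peaks on the other. At Mycn the next peak at higher coordinates began at 14095761, after 1145 kb with no listed peak, and 10.5% of autosomal gaps were as long. It scored 5.82, a value that 96 peaks share. On the other side the nearest peak outside the window, from 12810447 to 12810799, scored 4.68 and ended 79.2 kb before the window. Beyond it a stretch of 4 peaks spanned 4.90 kb from 12790843 to 12795743, with scores of 8.92, 9.32, 7.55 and 20.3. Counted together, 10 peaks fell within 159.9 kb, in 2 groups and 1 single peak. This span was drawn from the first to the last of these peaks and has no background share.

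At Myc the empty side lay at lower coordinates, where the preceding peak ended at 60671724, a gap of 1139 kb that 10.6% of autosomal gaps equalled or exceeded. That peak scored 9.58. On the other side the peak from 61924181 to 61924700, which began 49.2 kb past the window, scored 15.2 and ranked 344, above both peaks inside the window. A further peak from 61937967 to 61938210 scored 3.64. Together with the peaks inside the window these made 4 peaks in 127.8 kb, again measured from first to last peak and without a background share. In 1000 kb about the window midpoints there were 10 peaks at Mycn and 4 at Myc, and 2.56% and 21.5% of autosomal tiles of 1000 kb held as many or more. Chromosome 12 as a whole carried 1.61 peaks per Mb and chromosome 15 carried 2.07. Whether the counts at the loci follow the density of the chromosome was not tested.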

How the data were processed

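The deposited list gives chromosome, start, end, name and 1 score per peak of the FLAG library. The score is as the authors deposited it, with no header, so it was used only to rank and filter peaks. The submitters' processing notes name the build mm9 and, without saying what each did, Bowtie 1.0.0, bedtools 2.18.1, SAMtools 0.1.19 and FastQC 0.10.1. The peak caller and its control are not given in the sources used here. Starts were made 1-based. Tiles of 110 kb were laid from the first base of each autosome, using mm9 lengths from GenomeInfoDb 1.38.1, with assembly gaps left in. A gap is the number of bases between neighbouring peaks. Python 3.11.15, numpy 2.4.6, pandas 2.3.3 and scipy 1.17.1 were used, and the counting was tested on simulated lists with planted groups. All peaks of both windows and the nearest outside are named. The loci and measures were chosen with earlier results of these data known. A list of Myc partners was not placed on mm9 and is not analysed here. With no read counts, depth is unknown and no interval is given. Alternatives for window size, overlap, score minimum, joining and tiles were run.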

Additional observations from a re-analysis of the deposited data

How the results depend on the processing

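Mycn kept 5 peaks and Myc 2 when peak midpoints had to lie in the window and in a window of 55 kb. In a window of 220 kb Mycn kept 5 and Myc had 3. With peaks under 500 bp apart joined Mycn had 4 and Myc 2. With peaks scoring at least the list median Mycn kept 2, and with a score of at least 10 it kept 1 and Myc 0. The share of tiles with as many peaks as Mycn was 0.363% on chromosome 12 alone, 1.5% among tiles with at least 1 peak, 1.69% with peaks at or above the median score and 0.401% with peaks under 500 bp apart joined. For Myc these shares were 4.89%, 28.3%, 1.69% and 4.1%, in the same order, with chromosome 15 in place of 12. The share of peaks scoring as high as the strongest Mycn peak was 3.08% on chromosome 12, and for Myc it was 29% on chromosome 15. With the score minimum or the joining, the number of peaks a tile had to hold changed too, to 2 and 4 for Mycn, which is why both loci share 1.69%. The largest Mycn stretch held 4 peaks with joining under 5 kb and 5 under 25 kb, and the Myc peaks stayed single. In all, 17 of 30 such changes of setting left a value within its tolerance (1.5 times for a count, the 95% exact binomial interval for a share). No paired analysis was possible because there is 1 library per group. Depth limits the list, since regions below its threshold are not in it.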

Other observations

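Weak peaks near strong ones were counted after the Mycn values were seen. On the autosomes 475 peaks scored 2.88 or less, the limit being the highest of the 3 weak Mycn scores, and 13 of them (2.74%) lay within 5 kb of a peak scoring at least 10. Of the 4645 higher-scoring peaks, 206 (4.43%) did. Any other peak within 5 kb was found for 21.1% of the weak peaks and 21.7% of the others. With the strong peak held at 42.5 or more, the 3 Mycn peaks meet the count by construction, since both limits are Mycn values, and no further weak peak did. With the weak limit at a score of 4 the count was 4 of 1497 peaks, and at the list median 5 of 2569, 3 of them at Mycn each time. Of the 85 autosomal peaks scoring at least as high as the strong Mycn peak, 16 (18.8%) had another peak within 5 kb, against 21.7% of all autosomal peaks. At least 3 were found for 10 of the 85, the Mycn peak included, and the share with at least 3 was not counted for all autosomal peaks. Strong peaks of the same stretch are counted one by one, so these are not separate loci. Among the weak Mycn peaks, the score 2.88 recurred exactly in 20 peaks of the list and the score 2.83 in 7, while the scores 42.5 and 1.95 each belonged to 1 peak. The Myc scores of 5.28 and 6.89 recurred in 6 and 3 peaks.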
